A study of Mus musculus with 4 samples.

Results

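The genes described are 10 cytokine genes chosen by symbol: 8 members of the interleukin 1 family (the ligands Il1a, Il1b, Il18 and Il33, the antagonist Il1rn, and the receptor chains Il1r1, Il1rl1 and Il1rap) together with Il6 and Tnf. All 10 are among the 21499 distinct gene symbols of the files, and 7 of them had an FPKM (sequenced fragments divided by transcript length in kilobases and by library size) of at least 1 in at least 2 libraries and so entered the test between genotypes, beside 12573 genes tested in all. The remaining 3, Il1rl1, Il6 and Tnf, lay under that filter and are given as values.

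RNA came from lung tissue beside B16-F10 colonies in 2 wild-type (WT) and 2 lactoferrin knockout (Lf-/-) mice, 1 library per mouse. B16-F10 cells come from a mouse melanoma and, injected into the tail vein, seed colonies in the lung. All 4 mice are labelled C57B/L6 males, were 8 weeks old when 200000 B16-F10 cells were injected, and were killed 3 weeks later. No mouse without tumour cells has a library here, so both genotypes carry the metastases. Lactoferrin, made from Ltf, binds iron and is stored in neutrophil granules and released in secretions, and the comparison asks how the lung next to metastases differs without it. The labels give 10 mice per genotype and do not say how these were chosen, nor how the knockout allele was made.

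Interleukin 1 alpha and beta signal through the receptor chain made from Il1r1 and the shared accessory chain made from Il1rap, and the product of Il1rn occupies Il1r1 without signalling. Interleukin 33 binds the ST2 receptor, made from Il1rl1, with the same accessory chain, and interleukin 18 has its own receptor pair. Interleukin 1 beta and interleukin 18 are made as precursors that caspase 1 cuts, whereas interleukin 33 is held in the nucleus and released when cells are damaged, so a transcript level says nothing of the active protein. In the mouse lung interleukin 33 is made largely by alveolar type 2 cells, interleukin 1 beta mostly by neutrophils, monocytes and macrophages, and ST2 is found on type 2 innate lymphoid cells, mast cells, regulatory T cells and others. Il6 and Tnf encode early inflammatory cytokines that many of these cells make on activation.

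Several properties of the libraries touch these genes. Ltf had an FPKM of 79.2 and 7.32 in WT mice 1 and 2 and of 0.104 and 0.533 in knockout mice 1 and 2, which follows the labels. The Y-linked genes Eif2s3y, Ddx3y, Uty and Kdm5d were present in both knockout libraries (FPKM from 1.91 to 24.2) and at 0 or 0.0426 in both WT libraries, against the label male, so genotype and Y-linked transcripts cannot be told apart in any comparison. The tissue had the lung markers its label calls for, except that Scgb1a1, a club cell gene, was listed at 0 in knockout mouse 2 and between 60454 and 72936 in the other mice. Melanocyte markers, 7 in all, summed to an FPKM of 106 in WT mouse 2 and to between 4.58 and 8.53 in the other mice, with Tyr, Tyrp1 and Slc45a2 at 0 in WT mouse 1 and knockout mouse 2. FPKM gives no read totals, but low values of genes with a single annotated transcript clustered at steps that imply about 23100000, 25100000 and 23400000 fragments in WT mice 1 and 2 and knockout mouse 1, and no step was resolved in knockout mouse 2.

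The 10 genes lie on 7 chromosomes, in coordinates of GRCm38 (GENCODE vM21). Il1a (chromosome 2, 129299610 to 129309972, minus strand) and Il1b (chromosome 2, 129364570 to 129371139, minus strand) are neighbours 54.6 kb apart. Il1rn lies far from them on the same chromosome (24336853 to 24351494, plus strand). Il1r1 (chromosome 1, 40225080 to 40317257, plus strand) and Il1rl1 (chromosome 1, 40429570 to 40465415, plus strand) are 112.3 kb apart in the receptor cluster. Il33 is on chromosome 19 (29925114 to 29960718, plus strand), Il1rap on chromosome 16 (26581704 to 26730117, plus strand), Il6 on chromosome 5 (30013114 to 30019981, plus strand) and Tnf on chromosome 17 (35199381 to 35202007, minus strand). Il18 (50554827 to 50581840, plus strand) shares chromosome 9 with the knocked-out gene and lies 60.4 Mb from it. No annotated transcript of another gene was near-identical to any of the 10, but exons of Il1b, Il1a and Il1rap overlap those of Il1bos, Gm14023 and Gm20319 on the opposite strand. The strand setting of the counting is not given in the sources used here, so reads from these partners cannot be told apart from the 3 genes.

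The sequences shown are the 250 bases before the annotated starts of the genes whose libraries stood furthest apart or whose control is best known: Il33 with both of its RefSeq starts, Il1b and Tnf, and Il6 for comparison (RefSeq, GRCm38.p6, each written 5′ to 3′ on the gene's strand). Capitals mark matches, on either strand, to the degenerate NF-kappaB consensus, an AP-1 motif (TGANTCA), a cyclic AMP response element (TGACGTCA) or a TATA box (TATAAA), and no match overlapped another.
Il33, upstream start, chr19:29924863-29925112, plus strand: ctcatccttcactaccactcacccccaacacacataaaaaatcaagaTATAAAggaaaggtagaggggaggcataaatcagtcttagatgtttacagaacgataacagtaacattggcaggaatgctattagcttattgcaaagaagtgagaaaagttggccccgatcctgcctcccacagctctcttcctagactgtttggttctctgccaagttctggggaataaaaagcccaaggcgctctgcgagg
Il33, downstream start, chr19:29945540-29945789, plus strand: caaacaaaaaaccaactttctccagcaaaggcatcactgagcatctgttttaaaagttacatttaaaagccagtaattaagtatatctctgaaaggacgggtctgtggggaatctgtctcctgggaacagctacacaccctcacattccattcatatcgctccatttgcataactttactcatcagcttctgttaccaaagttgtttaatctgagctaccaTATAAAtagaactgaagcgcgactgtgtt
Il1b, chr2:129371140-129371389, minus strand: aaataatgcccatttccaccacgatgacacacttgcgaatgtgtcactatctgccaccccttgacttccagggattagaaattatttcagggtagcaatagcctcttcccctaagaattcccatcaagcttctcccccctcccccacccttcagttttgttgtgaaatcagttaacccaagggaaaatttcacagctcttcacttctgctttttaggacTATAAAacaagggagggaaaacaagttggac
Tnf, chr17:35202008-35202257, minus strand: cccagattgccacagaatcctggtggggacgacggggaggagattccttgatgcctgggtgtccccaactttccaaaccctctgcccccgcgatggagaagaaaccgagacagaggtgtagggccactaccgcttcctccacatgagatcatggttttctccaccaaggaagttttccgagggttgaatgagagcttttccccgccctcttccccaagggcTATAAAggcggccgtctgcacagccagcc
Il6, chr5:30012864-30013113, plus strand: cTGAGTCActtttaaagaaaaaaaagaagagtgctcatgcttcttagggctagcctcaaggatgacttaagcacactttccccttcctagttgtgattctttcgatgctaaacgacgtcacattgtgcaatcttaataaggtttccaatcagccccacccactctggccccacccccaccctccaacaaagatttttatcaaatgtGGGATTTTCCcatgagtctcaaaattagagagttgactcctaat
A TATA box stood 29 bases before the downstream start of Il33 and 29 before that of Tnf, and 31 before that of Il1b, whereas the match at the upstream start of Il33 lay 203 bases away. Il6 held the NF-kappaB match GGGATTTTCC 44 bases before its start, and an AP-1 match 249 bases before it. Of 32851 promoter windows of this length 12.4% held the TATA motif, 7.25% the NF-kappaB consensus, 6.75% the AP-1 motif and 1.55% the cyclic AMP response element. Among the 15 windows of the 10 genes these motifs were found in 6, 2, 3 and 0, and the further NF-kappaB match belonged to a start of Il1r1. A match describes letters in this window, and the files do not say which start was used.

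Across the libraries the transcripts spanned a wide range of levels. Il33 was the most abundant of the 10 in 3 of the 4 libraries and Il1b in knockout mouse 2. By mean FPKM over the 4 libraries the order was Il33 (35.8), Il1b (14.3), Il18 (10.3), Il1r1 (8.84), Il1rn (3.52), Il1rap (2.09), Il1a (1.83), Tnf (0.702), Il1rl1 (0.642) and Il6 (0.113). The ranges over libraries overlapped between neighbours from Il33 to Il1r1, between Il1rap and Il1a, and between Tnf and Il1rl1, so those neighbours are not separated by their spread. Gaps without overlap stood between Il1r1 and Il1rn, between Il1rn and Il1rap, between Il1a and Tnf, and between Il1rl1 and Il6.

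**Figure D1:**
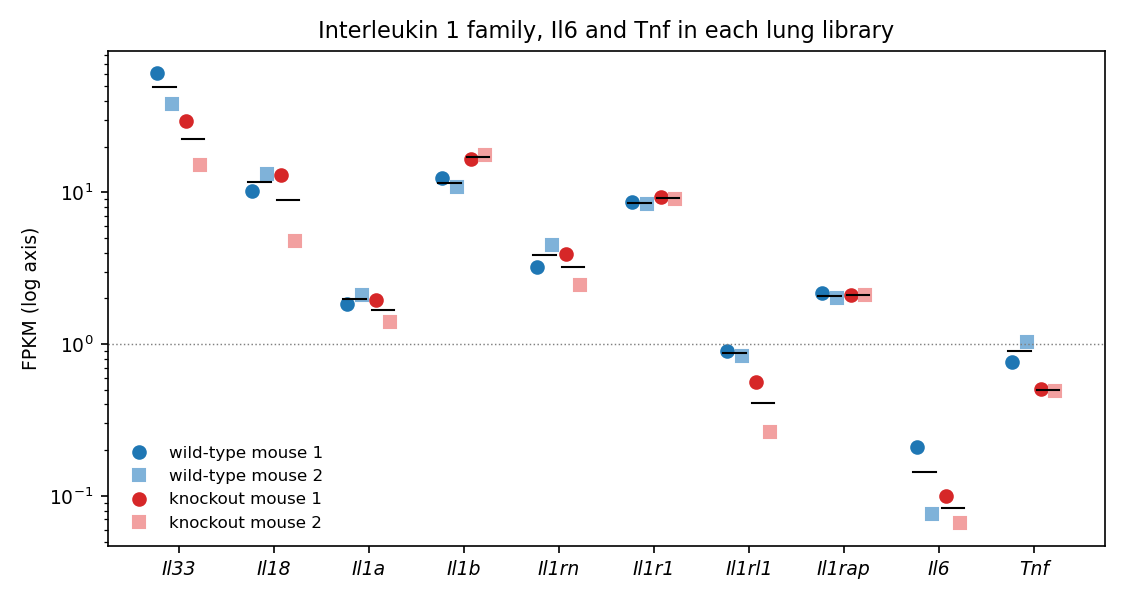
FPKM of the 10 genes in each library on a log axis; points are single libraries, short black lines the mean of the 2 mice of a genotype, and the dotted line an FPKM of 1. Il33, Il1rl1 and Tnf have both knockout points below both WT points, and Il1b and Il1r1 have both above.

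None of the 7 tested genes passed an adjusted p under 0.05 in limma (moderated test on log2(FPKM + 1), adjusted over all 12573 genes), where 0.0239% of all genes passed (0.0159% higher and 0.00795% lower). The genes that passed as higher were 2, the Y-linked Eif2s3y and Ddx3y. At an unadjusted p under 0.05 there was 1 of the 7 higher, Il1b, against 2.55% of all genes, and 1 lower, Il33, against 2.56%, or 2 of 7 against 5.11% in either direction. By order alone, both knockout libraries lay above both WT libraries for 2 of the 10 genes (Il1b and Il1r1), against 15.9% of genes above 0 in some library, and below them for 3 (Il33, Il1rl1 and Tnf), against 18.3%. The remaining 5 overlapped between genotypes. The median log2 difference was -0.16 over the 7 tested genes and -0.005 over all genes tested, and over all 10 genes it was -0.19. Without knockout mouse 2 the median of the 7 was 0.036. With 2 mice against 2, the smallest p of an exact permutation test is 0.333, and single genes are therefore given no such test.

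Il33 transcripts were lower in both knockout lungs. Its FPKM was 60.7 and 38.0 in WT mice 1 and 2 and 29.4 and 15.2 in knockout mice 1 and 2. The gap between the genotypes, from 38.0 to 29.4, was smaller than the gap between the mice of either genotype. The means were 49.4 ± 16.1 in WT and 22.3 ± 10.1 in the knockout (SD, n = 2), a ratio of 0.452 and a log2 difference of -1.15 (SE 0.39, unadjusted 95% interval -2.16 to -0.13). By limma the unadjusted p was 0.0344 and the adjusted p 0.89. With no filter on low values the unadjusted p by limma was 0.0524, above 0.05. The difference was -0.69 without knockout mouse 2, -0.81 without WT mouse 1, -1.48 without WT mouse 2 and -1.60 without knockout mouse 1, so its size depended on which mouse was left out, and its direction did not.

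Il1rl1, the gene of the interleukin 33 receptor ST2, followed the same order at a much lower level. It had an FPKM of 0.907 and 0.837 in the WT mice and 0.561 and 0.262 in knockout mice 1 and 2, a ratio of means of 0.472. The WT mice lay close together and the knockout mice apart. From the steps of low values these levels stand for about 7.9 to 111.1 and 7.9 to 111.4 fragments in WT mice 1 and 2. In knockout mouse 1 they stand for 4.9 to 69.7, depending on the transcript, and in knockout mouse 2 the number is not known. Counting error may therefore be large. The gene stayed under an FPKM of 1 in every library and was not in the main test. With no filter on low values limma gave it a log2 difference of -0.41 (SE 0.13, unadjusted p = 0.0331, adjusted p = 0.878), and 887 of 17103 genes had an unadjusted p under 0.05 in that fit. Leaving out knockout mouse 2 gave -0.26, and leaving out knockout mouse 1 gave -0.57. The FPKM ratio of Il33 to Il1rl1 was 67.0 and 45.4 in WT and 52.5 and 57.8 in the knockout, which overlapped. The values do not separate the transcript of the membrane receptor from that of its soluble form.

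Markers of cells that make or receive interleukin 33 moved in part with these genes. In whole lung, fewer cells of a type and less RNA per cell cannot be told apart. The summed FPKM of 8 alveolar type 2 markers was 27345 and 27566 in the WT mice, 26775 in knockout mouse 1 and 20898 in knockout mouse 2, with none at 0 and 6 of 8 markers lower in both knockout mice, against 18.3% of all genes above 0 (15.9% were higher in both). Relative to the WT mean this sum was 0.975 and 0.761 in knockout mice 1 and 2, where Il33 was 0.596 and 0.307. The marker Sftpc made up most of the sum, with an FPKM of 20922 and 21592 in WT and 21538 and 17185 in the knockout. Single markers differed from the sum. Lamp3 had 209 and 182 against 176 and 74.4, Sftpd 1188 and 907 against 648 and 668, and Sftpb 2692 and 2550 against 2455 and 1856. Sftpc and Etv5 overlapped between genotypes. Endothelial markers, 7 in all, summed to 1113 and 1227 in WT and 1230 and 1432 in the knockout. Of these, 3 were higher and 1 lower in both knockout mice. Fibroblast markers, 8 in all, summed to 843 and 519 in WT and 780 and 599 in the knockout. Of these, 3 were higher (Pdgfra, Tcf21 and Npnt) and 0 lower in both knockout mice. The collagen markers and Dcn overlapped and were highest in WT mouse 1. The shares of all genes given above apply to these counts and to those that follow. Of 8 markers of type 2 innate lymphoid cells, 3 were lower in both knockout mice and 1 higher, and the sums were 17.2 and 20.2 against 17.7 and 19.2. Areg made up a large part of the sum in knockout mouse 2, with 3.56 and 2.79 against 3.19 and 8.24. Il7r had 4.35 and 7.27 against 4.39 and 2.61. Among the 8 markers Il13 was at 0 in WT mouse 1 and Il5 and Il13 at 0 in both knockout mice. Of 9 mast cell and basophil markers 1 was lower and 2 were higher in both knockout mice. Their sums were 69.5 and 83.3 against 88.0 and 73.1, with most from Kit and Gata2. Tpsb2 was at 0 in WT mouse 2 and knockout mouse 2. Cma1, Mcpt4, Cpa3 and Tpsb2 were highest in WT mouse 1, Mcpt4 with 3.10 and 0.252 against 0.286 and 0.0708. The 2 higher markers were Mcpt8, with 0.233 and 0.158 against 1.89 and 0.827, and Ms4a2. The part of these cells in the level of Il33 or Il1rl1 was not tested.

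**Figure D2:**
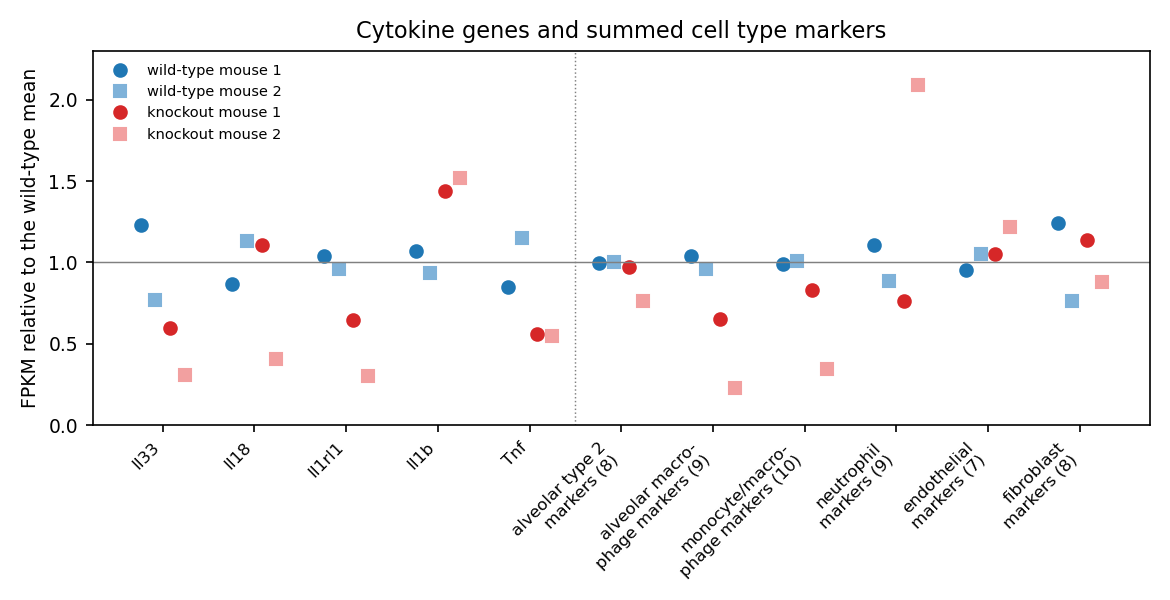
FPKM of 5 cytokine genes (left of the dotted line) and summed FPKM of cell type marker lists (right, number of genes in brackets), each divided by its WT mean, with 1 point per library. In knockout mouse 2 Il33, Il18 and Il1rl1 sit at 0.307, 0.409 and 0.301 beside alveolar macrophage markers at 0.231 and neutrophil markers at 2.09. Car4 made up most of the alveolar macrophage sum in that mouse.

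Il1b, the gene of interleukin 1 beta, was higher in both knockout lungs. Its FPKM was 12.3 and 10.8 in the WT mice and 16.7 and 17.5 in the knockout mice. The groups were apart by more than the spread within either, with means of 11.6 ± 1.10 and 17.1 ± 0.61 (SD, n = 2), a ratio of 1.48. The log2 difference was 0.53 (SE 0.12, unadjusted 95% interval 0.21 to 0.85, unadjusted p = 0.00874 and adjusted p = 0.89 by limma). It ranged from 0.44 to 0.62 when a library was left out. Neutrophil markers, 9 in all with none at 0, summed to 750 and 598 in WT, 514 in knockout mouse 1 and 1408 in knockout mouse 2. Knockout mouse 1 had a high Il1b level with the lowest neutrophil sum of the 4, and knockout mouse 2 a similar level with the highest. S100a8 and S100a9 made up most of this sum. Of the 9 markers 1 was higher and 1 lower in both knockout mice, against 15.9% and 18.3% of all genes above 0. The higher marker, Csf3r, had 10.5 and 10.4 in WT and 12.8 and 16.9 in the knockout. The lower marker, Mmp9, had 11.5 and 12.5 against 10.6 and 10.0. Monocyte and macrophage markers, 10 in all, summed to 306 and 311 in WT and to 256 and 107 in the knockout. Of these, 7 were lower and 0 higher in both knockout mice, against the same shares of 18.3% and 15.9%. C1qa, C1qb, C1qc and Cd68 made up most of the sum. Ccr2 overlapped, with 4.59 and 6.66 against 9.47 and 5.47, and Ly6c2 had 16.6 and 17.9 against 14.3 and 16.1. The part of neutrophils, monocytes and macrophages in the Il1b level was not tested.

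Il1a, the sister agonist, did not follow Il1b. It had an FPKM of 1.83 and 2.11 in WT and 1.96 and 1.40 in the knockout, so the genotypes overlapped (log2 difference -0.16, unadjusted 95% interval -0.62 to 0.31). Il1b made up 87.1% and 83.6% of the summed FPKM of both agonists in WT, and 89.5% and 92.6% in the knockout.

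Il1rn, the antagonist, also overlapped between genotypes. It had an FPKM of 3.24 and 4.47 in the WT mice and 3.93 and 2.46 in knockout mice 1 and 2, with a log2 difference of -0.22 (unadjusted 95% interval -0.85 to 0.41) that was 0.036 without knockout mouse 2. Set against its agonists within each library, which removes any scaling between libraries, the FPKM ratio of Il1rn to Il1a plus Il1b was 0.229 and 0.346 in WT and 0.211 and 0.130 in the knockout. Both knockout values lay below both WT values, but WT mouse 1 and knockout mouse 1 were nearly equal. Il1b, higher in both knockout mice, made up most of the agonist sum, so this order is not independent of the Il1b order. The mean log2 difference of the ratio was -0.76, which has the smallest p that an exact two-sided permutation test can give here (0.333). It ranged from -1.11 to -0.41 when a library was left out.

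**Figure D3:**
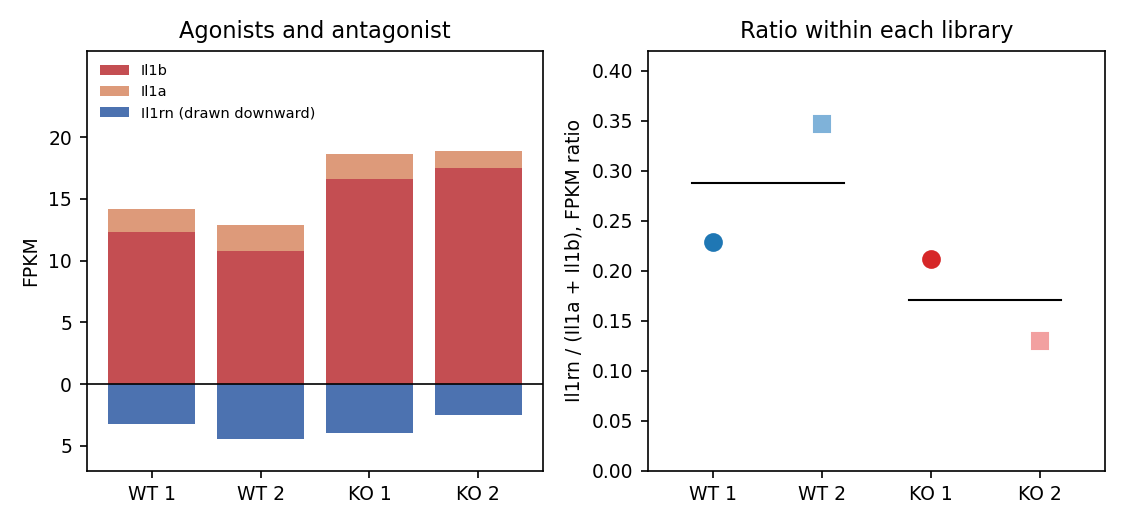
Left, stacked FPKM of Il1b and Il1a (upward) and of Il1rn (drawn downward) in each library; right, the FPKM ratio of Il1rn to both agonists in each library, with black lines at the mean of each genotype. The agonist sum is 14.2 and 12.9 in WT and 18.6 and 18.9 in the knockout, and the ratio is lowest in knockout mouse 2.

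Il18, the gene of interleukin 18, separated knockout mouse 2 from the rest and not the genotypes. Its FPKM was 10.2 and 13.2 in WT, 13.0 in knockout mouse 1 and 4.78 in knockout mouse 2. The log2 difference was -0.48 (SE 0.45, adjusted p = 0.904 by limma), with a value of 0.15 once knockout mouse 2 was left out and -1.12 without knockout mouse 1. Alveolar macrophage markers, 9 in all, summed to 758 and 695 in WT and 472 and 168 in the knockout. Of these, 3 were lower and 0 higher in both knockout mice, against 18.3% and 15.9% of all genes above 0. Car4 made up most of the sum in knockout mouse 2, with 81.5 and 77.3 in WT and 72.4 and 98.0 in the knockout. Fabp4 had 153 and 7.66 against 7.59 and 11.3. Knockout mouse 2 also had the lowest sums of the monocyte and macrophage markers and of the alveolar type 2 markers. None of these markers was at 0. Their part in the low Il18 level was not tested.

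The receptor chains of interleukin 1 varied least. Il1r1, the signalling receptor, had an FPKM of 8.57 and 8.42 in WT and 9.29 and 9.07 in the knockout. The genotypes did not overlap, but the difference was small (ratio 1.08, log2 difference 0.10, SE 0.11, adjusted p = 0.918 by limma). Il1rap, the accessory chain, had 2.16 and 2.01 against 2.11 and 2.10, which overlapped, with a log2 difference of 0.0089 (unadjusted 95% interval -0.35 to 0.37). For Il1rap the interval therefore leaves room for a change of either sign.

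**Figure D4:**
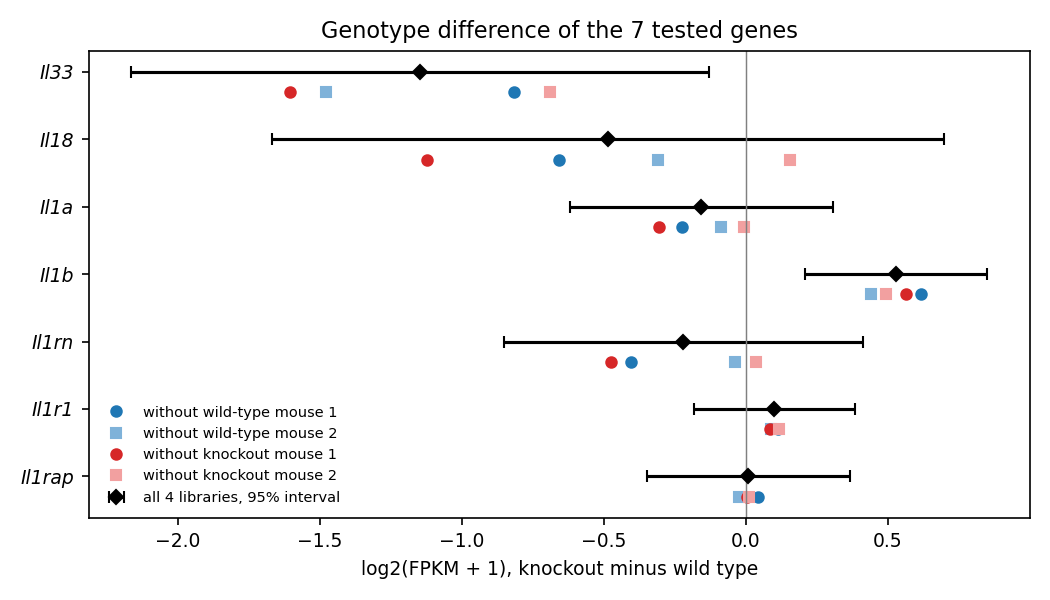
Difference in mean log2(FPKM + 1), knockout minus WT, for the 7 tested genes; black diamonds are all 4 libraries with unadjusted 95% intervals from limma, and coloured points leave out 1 library each. The intervals of Il33 and Il1b stay on one side of 0, while the points of Il18, Il1rn and Il1rap fall on both sides.

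Tnf, the gene of tumour necrosis factor, was low in all libraries and lower in both knockout mice. Its FPKM was 0.767 and 1.04 in WT and 0.508 and 0.493 in the knockout, a ratio of means of 0.554. The knockout mice were almost equal, and both lay below the lower WT mouse. From the steps of low values these levels stand for about 25.9 to 29.0, 38.1 to 42.8 and 17.4 to 19.5 fragments in WT mice 1 and 2 and knockout mouse 1, depending on the transcript. Only WT mouse 2 reached an FPKM of 1, so Tnf was not in the main test. With no filter limma gave a log2 difference of -0.34 (SE 0.10, unadjusted p = 0.0279, adjusted p = 0.878), which ranged from -0.44 without WT mouse 1 to -0.24 without WT mouse 2.

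Il6 was close to the limit of detection. Its FPKM was 0.211 and 0.0757 in WT and 0.0997 and 0.0662 in the knockout, and the genotypes overlapped. In the 3 libraries with a resolved step this is about 1.2 to 11.4 fragments, depending on the transcript, so counting error alone is large for this gene, and the fragments behind the value of knockout mouse 2 are not known.

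Genes around these cytokines were read from lists of pathway members, with no member of any list past the threshold. Of 6 tested genes for other receptors and binding proteins of the interleukin 1 family, 6 were higher in mean, 4 of them without overlap and none lower without overlap, with a median log2 difference of 0.13. Among all genes tested, 48.8% were higher and 51.2% lower in mean, 18.5% and 17.5% without overlap, and under quantile normalization the shares without overlap were 23.1% and 13.4%. Il18bp, a secreted protein that binds and neutralises interleukin 18, had an FPKM of 4.20 and 4.79 in WT and 7.03 and 5.50 in the knockout (log2 difference 0.40, adjusted p = 0.89 by limma). Il18r1, the ligand-binding chain of the interleukin 18 receptor, had 17.4 and 20.1 against 22.0 and 22.3. Sigirr, an inhibitory receptor of the family, had 12.9 and 11.95 against 13.5 and 14.4, and Il18rap, the accessory chain for interleukin 18, 1.82 and 1.77 against 1.88 and 2.12. Without knockout mouse 1, knockout mouse 2 or WT mouse 2, an alternative added after the data were seen, 5 of the 6 were higher in each case. Of 5 further ligand genes of the family in the files, Il1f9 (interleukin 36 gamma) was tested and overlapped, with 2.80 and 4.97 in WT and 3.09 and 4.61 in the knockout. Il1f5, Il1f6 and Il1f10 were listed at 0 in every library, and Il1f8 reached 0.0325 in WT mouse 2 alone.

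Another list held genes of the inflammasome and of the processing of interleukin 1 beta and interleukin 18. Of its 11 tested genes, 8 were lower in mean (51.2% of all genes tested), 3 of them without overlap (17.5% of all). None was higher without overlap (18.5% of all), and the median was -0.09. Casp1, the protease that cuts both precursors, had an FPKM of 7.59 and 7.38 in WT and 6.21 and 3.29 in knockout mice 1 and 2 (log2 difference -0.61, SE 0.27, adjusted p = 0.89 by limma). Pycard, the inflammasome adaptor ASC, had 3.001 and 2.79 against 2.25 and 2.16. Elane, neutrophil elastase, which can also cut the interleukin 1 beta precursor, had 1.05 and 3.22 against a listed 0 and 0.82, and P2rx7, an ATP-gated channel upstream of the inflammasome, overlapped with 4.94 and 6.31 against 5.40 and 4.79. Knockout mouse 2, which was lowest in Casp1, was also lowest in the macrophage and alveolar type 2 marker sums given above. The part of those cells was not tested. Without WT mouse 2 the list was nearly even, with 6 lower and 5 higher, and under quantile normalization its median was -0.017.

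Genes that carry the signal from the receptors were also compared, and the shares of all genes tested that did not overlap, 18.5% higher and 17.5% lower, apply to each count. Of 11 tested genes between the interleukin 1 receptor and its kinases, 4 were higher and 7 lower in mean, with 1 without overlap in each direction (median -0.04). The kinase gene Irak4 had 3.46 and 3.70 in WT and 3.08 and 3.05 in the knockout, with no overlap. The genotypes overlapped for Irak3, an inhibitory relative, with 3.31 and 4.32 against 3.75 and 2.85, for the kinase gene Irak1, with 22.2 and 19.6 against 20.02 and 19.4, and for the adaptor gene Tab1, with 8.84 and 6.56 against 8.07 and 8.59. Of 14 tested genes of the interleukin 6 pathway, 4 were higher and 10 lower in mean, 2 and 3 of them without overlap (median -0.08). Without WT mouse 1 the counts were 7 and 7, and without knockout mouse 2 they were 6 and 8. Stat3, the transcription factor under the interleukin 6 receptor, had 39.5 and 36.0 against 32.2 and 33.2. Lifr, a receptor chain for leukaemia inhibitory factor, had 7.17 and 9.17 against 12.5 and 10.0, Il11ra1, the interleukin 11 receptor, 27.4 and 23.2 against 29.7 and 29.8, and the cytokine gene Clcf1 2.84 and 4.33 against 5.68 and 4.11. Of 12 tested genes of the tumour necrosis factor pathway, 5 were higher and 7 lower, 1 and 2 without overlap (median -0.02). Without WT mouse 2 there were 8 higher and 4 lower (median 0.0052), so this list had no direction that held over the libraries. Tnfrsf1a, the widely expressed receptor, had 64.4 and 61.4 against 73.5 and 72.7, and Tnfrsf1b, the second receptor, 16.9 and 23.1 against 18.1 and 10.9. Birc3, an inhibitor of apoptosis induced by NF-kappaB, had 8.08 and 9.43 against 7.39 and 7.17, and the kinase gene Ripk1 9.82 and 9.14 against 8.80 and 7.61.

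Among 13 tested genes known as NF-kappaB regulators and targets, 9 were lower and 4 higher in mean, with 3 lower and 0 higher without overlap (17.5% and 18.5% of all genes tested) and a median of -0.10. Nfkbiz, a nuclear regulator induced by interleukin 1, had an FPKM of 5.06 and 5.78 in WT and 3.61 and 4.23 in the knockout (log2 difference -0.39, SE 0.14, unadjusted p = 0.0439, adjusted p = 0.89 by limma). Lcn2, a siderophore-binding protein of neutrophils and epithelium, had 265 and 163 against 81.8 and 141, and Cxcl1, a neutrophil chemokine, 1.54 and 1.20 against 0.453 and 1.10. Nfkb2 overlapped, with 22.8 and 17.3 against 15.6 and 18.1. The direction of this list turned with the libraries used: its median was 0.039 without knockout mouse 1, 0.023 without WT mouse 1, and -0.31 without knockout mouse 2 or WT mouse 2.

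**Figure D5:**
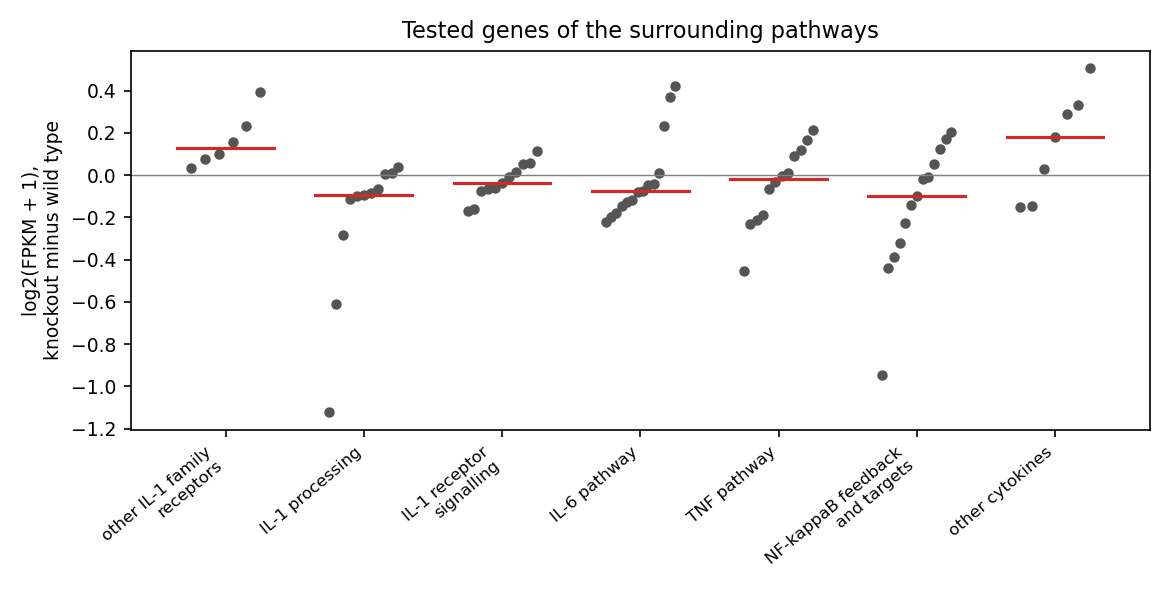
Difference in mean log2(FPKM + 1), knockout minus WT, of the tested genes of 7 pathway lists, with 1 point per gene and a red line at the median of the list. Medians lie between -0.10 and 0.18, and none of the genes passed the adjusted threshold.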

How the data were processed

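Each of the 4 deposited files holds FPKM values, made by the authors, for 21545 symbols; the submitters' processing notes name TopHat, Cufflinks, HTSeq, DESeq and GRCm38 without role or version. No source used here gives the annotation, the strand setting or a scaling between libraries. Symbols listed repeatedly (39, with 46 surplus entries) were added up, and values were used with no further scaling. Genes reaching 1 FPKM in 2 or more libraries were compared with limma 3.58.1 (R 4.3.3; lmFit, eBayes with trend) on log2(FPKM + 1), a scale that understates changes of low genes. Genotype was the sole term, with Benjamini-Hochberg adjustment over 12573 genes at 0.05, 2 residual and 2.62 prior degrees of freedom. The step was tested on simulated data. The members and lists were chosen with earlier results of these data known. From each list up to 4 tested genes with the smallest p are named. Intervals are unadjusted 95% intervals. The NF-kappaB consensus replaced a different pattern, found at starts of Il6 and Il1rn, after those matches had been seen. No start of Il1rn holds a match to the consensus now used. Implied fragments rest on GENCODE vM21 transcript lengths and values up to 0.3. Near-identical copies (at least 95% identity over 50% of a transcript) were searched with BLAST 2.17.0. Alternatives were no filter, a filter on the mean (5 FPKM), pseudocounts of 0.1 and 0.5, median ratio and quantile scaling, no variance trend, a replicate block and leaving out each library. Tables were made in Python 3.11.15 with pandas 2.3.3 and numpy 2.4.6, exact permutation tests with scipy 1.17.1, and figures with matplotlib 3.10.9.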

Additional observations from a re-analysis of the deposited data

How the results depend on the processing

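Over 88 refits of the 7 tested genes, 85 kept the direction of the difference and 0 passed the adjusted threshold by limma (adjusted p from 0.387, for Il18 without knockout mouse 1, to 1.0). The exceptions were Il1rn (0.036) and Il18 (0.15) without knockout mouse 2 and Il1rap (-0.024) without WT mouse 2. Leaving out a library, these ranged from -0.48 to 0.036, from -1.12 to 0.15 and from -0.024 to 0.042. Leaving out a library moved the count of genes past the threshold from 3 to between 0 and 1, the non-overlapping members to 2 to 3 higher and 3 to 7 lower, and the non-overlapping genes to 3575 to 4993 higher and 3503 to 5023 lower, since 1 library is easier to separate. At a mean FPKM of at least 5, fewer genes were counted, and 1813 were higher and 1309 lower without overlap, from 2320 and 2204. The lower genes thus fell more than the higher ones, and the reason was not tested. With no filter 0 genes passed. The mouse number as a replicate block gave 0 calls, against 3 without it; same-numbered mice deviated in opposite directions (r = -0.336 over 12573 genes), and nothing in the labels pairs them. Quantile normalization tilted the non-overlapping genes to 2903 higher and 1687 lower, from 2320 and 2204. Crossed numbers as a block, chosen after seeing the data, gave 4 calls. The cause was not tested. Larger pseudocounts shrink low genes: with 0.1 the differences of Il1rl1 and Tnf were -0.99 and -0.73.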

Other observations

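Of 22 further cytokine genes that were listed, 7 were tested and none passed the adjusted threshold. Of these, 5 were higher and 2 lower in mean in the knockout, 3 and 1 of them without overlap, against 18.5% and 17.5% of all genes tested (median log2 difference 0.18, and -0.08 without knockout mouse 1). Il12a, a subunit of interleukin 12 and interleukin 35, had an FPKM of 0.632 and 0.534 in WT and 1.43 and 1.08 in the knockout (log2 difference 0.51, SE 0.17, unadjusted p = 0.0366, adjusted p = 0.89 by limma). Il15, a growth factor of natural killer and memory T cells, had 2.32 and 2.17 against 3.31 and 2.86. Tslp, an epithelial cytokine that acts on dendritic cells and type 2 lymphoid cells, had 1.89 and 1.42 against 2.32 and 2.15. Csf2, which alveolar macrophages need, had 2.82 and 3.40 against 2.72 and 2.70.

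The other 15 lay under the filter. Il12b, the shared subunit of interleukin 12 and interleukin 23, had 0.652 and 0.297 in WT and 0.0838 and 0.0762 in the knockout, opposite in order to Il12a, and was named after its values were seen. Il22 and Il25 were listed at 0 in all 4 libraries.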
